A study of Mus musculus with 6 samples.

Results

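Keratins and keratin-associated proteins were followed through the open chromatin of 3 cell populations of mouse back skin. The members were the protein-coding genes whose symbol is Krt or Krtap followed by a digit, 109 of 21896 annotated genes. Peaks of the 6 deposited lists were merged where they overlapped by at least 1 bp into 75738 regions, and a region belonged to a member where that gene's span was the nearest within 50 kb. This gave 168 keratin and Krtap regions, which lay nearest to 58 of the 109 genes. The remaining 51 genes, 10 keratins and 41 Krtap genes, had no region.

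The assay was ATAC-seq, in which a transposase cuts accessible DNA and peaks of cuts mark open chromatin. The 3 populations were touch dome (TD) cells, interfollicular epidermis (IFE) cells and hair follicle (HF) cells, with 2 libraries of each. Touch domes are patches of epidermis that house the Merkel cells of gentle touch. Each library came from 50000 sorted cells of mice on the C57BL/6 background at postnatal day 60. Every group, IFE and HF included, carried the genotype TNC-CREER; tdTomato and had received tamoxifen at 100 µg per g on postnatal days 51 and 52. The TD gate took cells that were TOMATO+ and also SCA1+, EPCAM+ and α6-integrin+. IFE cells passed the same gate but were TOMATO-. HF cells were EPCAM+ and α6-integrin+ but SCA1- and TOMATO-. The TD group is therefore defined by recombination driven from the Tnc gene, and the α6-integrin gate keeps cells that touch the basement membrane in every group. Whether the 2 libraries of a group stem from different mice is not in the labels, and their spread may be technical only. The lists hold peak positions only: depth is unknown, and a region with no peak is one where none was called, not one shown to be closed. In sorted populations, fewer cells with open chromatin and less open chromatin per cell cannot be told apart.

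Keratins form the intermediate filaments of epithelial cells, always as a pair of a type I with a type II protein. Krt5 and Krt14 pair in the basal layer of the epidermis, and Krt1 and Krt10 replace them as cells leave it. Other pairs belong to the follicle: sheath keratins such as Krt25, Krt27, Krt71 and Krt72 fill the inner root sheath around the growing hair, and hair keratins such as Krt31 and Krt32 fill the shaft. Krtap proteins are small and rich in cysteine or glycine and tyrosine, and they crosslink the hair keratins. Inner root sheath and shaft do not carry α6-integrin, and follicles of the back are usually at rest at this age. Type I genes lie in a cluster on chromosome 11 that also holds 23 Krtap genes. Type II genes, and the type I gene Krt18, lie on chromosome 15. A cluster of 24 Krtap genes lies on chromosome 16.

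Annotated starts were examined in windows of 300 bases, 250 before to 50 after the start, as given for 87 of the 109 genes by RefSeq on GRCm38.p6, the mm10 build that the peak lists use. The 9 windows printed here run from a start window overlapped by a peak in all 6 libraries, through starts where the libraries differed, to starts with no peak. They read 5′ to 3′ in the direction of the gene. Capitals mark matches to 4 motifs, each searched on both strands. The TATA box was taken as TATAAA. The motif of AP-1, a factor of epidermal and stress response, was taken as TGANTCA, where N is any base. That of AP-2, a family of factors in epidermal keratin control, was taken as GCCNNNGGC. That of LEF1/TCF, the factors of Wnt signalling in the hair matrix, was taken as CTTTGA. No 2 matches overlapped in these 9 windows.
Krt5, chr15:101712856-101713155, minus strand: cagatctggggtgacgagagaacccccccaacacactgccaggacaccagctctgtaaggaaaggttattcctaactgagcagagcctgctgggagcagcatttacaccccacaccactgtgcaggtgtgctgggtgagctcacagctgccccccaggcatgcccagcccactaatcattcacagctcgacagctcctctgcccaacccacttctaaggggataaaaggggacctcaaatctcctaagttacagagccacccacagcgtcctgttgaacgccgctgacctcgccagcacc
Krt79, chr15:101940275-101940574, minus strand: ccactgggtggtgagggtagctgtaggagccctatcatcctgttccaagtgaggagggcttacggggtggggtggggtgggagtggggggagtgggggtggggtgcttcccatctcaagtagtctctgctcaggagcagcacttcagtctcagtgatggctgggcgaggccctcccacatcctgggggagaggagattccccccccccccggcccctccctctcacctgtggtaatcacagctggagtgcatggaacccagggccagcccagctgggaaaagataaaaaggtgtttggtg
Krt24, chr11:99285213-99285512, minus strand: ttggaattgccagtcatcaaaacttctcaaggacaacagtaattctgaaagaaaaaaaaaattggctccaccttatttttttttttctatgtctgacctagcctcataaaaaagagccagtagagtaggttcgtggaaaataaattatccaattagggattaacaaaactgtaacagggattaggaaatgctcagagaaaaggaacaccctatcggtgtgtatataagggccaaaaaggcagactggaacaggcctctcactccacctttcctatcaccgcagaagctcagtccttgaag
Krt25, chr11:99322902-99323201, minus strand: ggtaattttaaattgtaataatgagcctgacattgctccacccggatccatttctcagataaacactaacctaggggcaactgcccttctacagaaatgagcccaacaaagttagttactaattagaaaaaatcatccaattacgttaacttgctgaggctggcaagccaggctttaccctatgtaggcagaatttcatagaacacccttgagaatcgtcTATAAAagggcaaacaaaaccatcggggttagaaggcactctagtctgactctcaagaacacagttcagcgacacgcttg
Krtap11-1, chr16:89571134-89571433, minus strand: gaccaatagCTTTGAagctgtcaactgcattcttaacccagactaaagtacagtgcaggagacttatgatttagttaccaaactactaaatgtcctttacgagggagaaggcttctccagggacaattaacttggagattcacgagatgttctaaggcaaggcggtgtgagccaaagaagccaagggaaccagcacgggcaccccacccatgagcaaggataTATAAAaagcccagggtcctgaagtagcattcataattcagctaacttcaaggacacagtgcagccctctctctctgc
Krtap17-1, chr11:99993945-99994244, minus strand: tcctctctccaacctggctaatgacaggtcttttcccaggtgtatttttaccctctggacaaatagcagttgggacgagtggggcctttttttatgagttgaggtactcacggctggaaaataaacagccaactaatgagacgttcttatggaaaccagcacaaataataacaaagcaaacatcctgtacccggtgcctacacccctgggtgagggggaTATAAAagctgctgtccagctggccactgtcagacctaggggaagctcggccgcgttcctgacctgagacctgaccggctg
Krt10, chr11:99389315-99389614, minus strand: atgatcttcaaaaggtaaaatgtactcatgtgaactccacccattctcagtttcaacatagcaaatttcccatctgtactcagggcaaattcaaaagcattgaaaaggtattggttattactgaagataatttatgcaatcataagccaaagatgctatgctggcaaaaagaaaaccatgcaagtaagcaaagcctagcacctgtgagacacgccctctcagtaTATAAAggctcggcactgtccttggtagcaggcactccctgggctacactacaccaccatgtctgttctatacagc
Krt31, chr11:100050502-100050801, minus strand: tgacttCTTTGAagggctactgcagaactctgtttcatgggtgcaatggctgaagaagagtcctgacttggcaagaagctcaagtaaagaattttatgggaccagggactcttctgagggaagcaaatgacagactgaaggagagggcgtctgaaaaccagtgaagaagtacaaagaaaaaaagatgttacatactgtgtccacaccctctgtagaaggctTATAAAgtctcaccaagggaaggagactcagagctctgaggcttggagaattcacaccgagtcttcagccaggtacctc
Krt18, chr15:102027966-102028265, plus strand: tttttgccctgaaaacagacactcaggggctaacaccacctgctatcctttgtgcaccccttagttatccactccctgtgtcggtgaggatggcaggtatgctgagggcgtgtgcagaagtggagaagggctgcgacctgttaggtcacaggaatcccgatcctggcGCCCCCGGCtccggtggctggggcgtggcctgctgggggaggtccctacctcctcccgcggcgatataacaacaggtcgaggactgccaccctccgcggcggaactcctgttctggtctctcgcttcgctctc

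The window of Krt5, the basal type II keratin, had a peak in all 6 libraries and held none of the 4 motifs. Krt79 marks the upper hair canal in mouse, and its window had a peak in TD 2, both IFE libraries and both HF libraries but not in TD 1. With negative positions upstream of the start, the nearest peaks reached to -1497 and -228 bp in TD 1 and TD 2 and to -224 bp in IFE 1 and in IFE 2, and they ran over the start itself in HF 1 and HF 2. Krt24, a keratin of differentiated epithelium, had a peak over the window in TD 1, HF 1 and HF 2 only. In the libraries without that peak, the nearest lay downstream of the start, at 422 bp in TD 2, 841 bp in IFE 1 and 919 bp in IFE 2. The TD libraries therefore differed from each other at both of these starts. Neither window held a match to the motifs.

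Krt25, a sheath keratin, had a TATAAA at position -30 and a peak over part of the window in all libraries but HF 2. That peak ran over the start in both TD and both IFE libraries. In HF 1 it ended at -66 bp, short of the TATAAA and the start. Krtap11-1 lies at the edge of the chromosome 16 cluster. Its window had a TATAAA at -28 and a CTTTGA at -241 and was overlapped by a peak in all 6 libraries. Those peaks began at -57 and -95 bp in TD, -44 and -147 bp in IFE, and -208 and -188 bp in HF. None of them reached the CTTTGA. Krtap17-1 had a TATAAA at -31, and a peak overlapped its window in both TD and both HF libraries but in neither IFE library. In IFE 1 and IFE 2 the nearest peaks lay 7707 and 7670 bp downstream of the start. Krt10, the suprabasal type I keratin, had a TATAAA at -26 and no peak over the window in any library. The nearest peaks upstream of it ended at -1629 and -1620 bp in TD, -1557 and -1551 bp in IFE, and -1710 and -1666 bp in HF. Their place was thus similar in all 6 libraries. Farther upstream, HF 1 and HF 2 had a peak ending at -10588 and -10463 bp that no TD or IFE library had. The table's starts of Krt10 and of 7 other windows lie inside a longer annotated gene span. The distance ran from 1 bp for Krt77 to 42337 bp for Krt78 and was 8085 bp for Krt10. Krt31, a hair shaft keratin with a TATAAA at -29 and a CTTTGA at -244, also had no peak over its window. Its nearest peaks lay 2472 to 2850 bp downstream in the 6 libraries. Krt18, a simple epithelial keratin made by Merkel cells, had an AP-2 match at -83, and its window had no peak; the nearest region lay 11100 bp upstream.

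**Figure D1:**
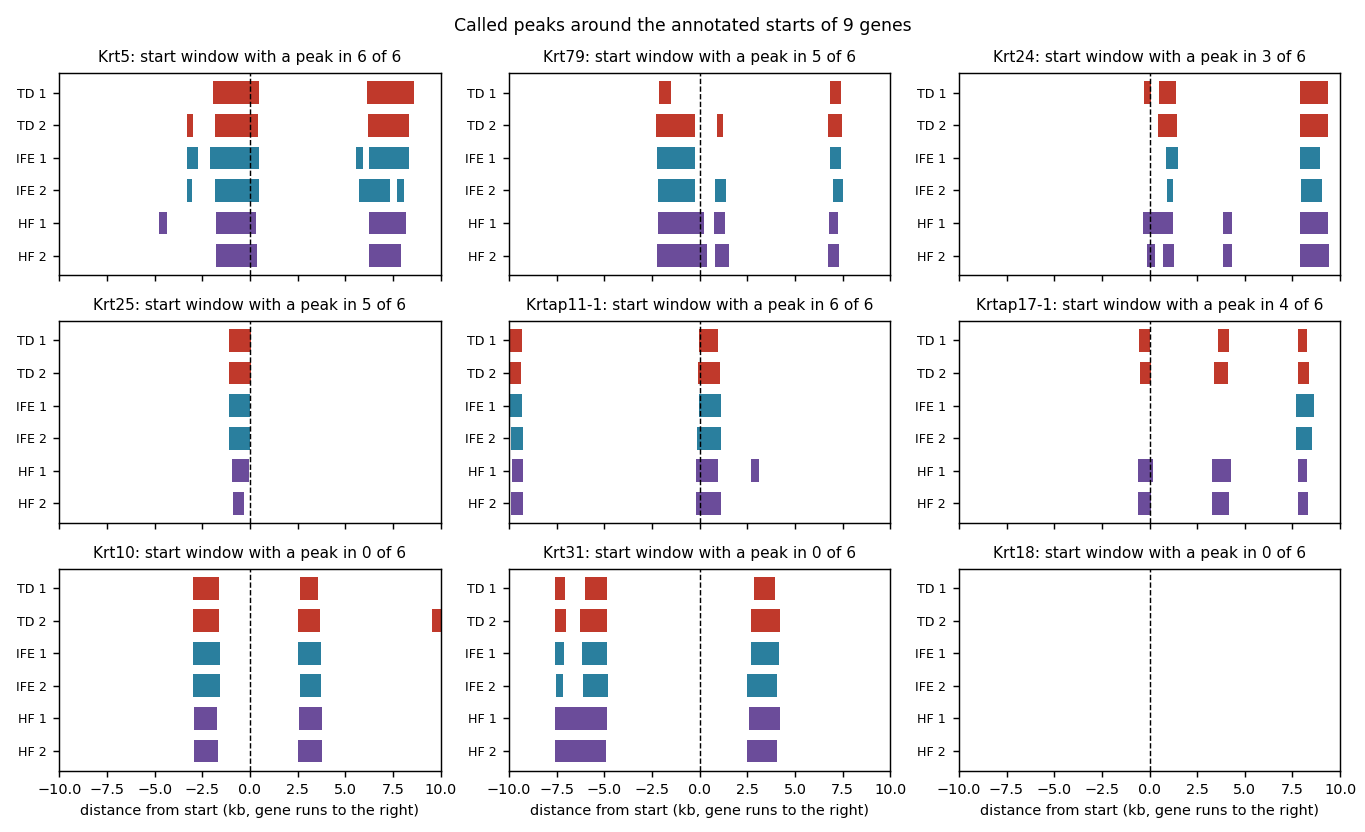
Called peaks around the annotated starts of the 9 genes whose windows are printed. The horizontal axis is distance from the start in kb with the gene running to the right, and each bar is a peak of 1 library, with TD, IFE and HF libraries from top to bottom. Peaks overlap the start windows of Krt5 and Krtap11-1 in all 6 libraries, that of Krtap17-1 in TD and HF only, and those of Krt10 and Krt31 in none.

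Listed start windows of keratin genes mostly had no peak. Of 88 keratin and Krtap windows, 2 (2.27%) had a peak in all 6 libraries, 11 in some and 75 (85.2%) in none. Over all 21262 protein-coding windows, 51.1% had a peak in all 6 and 42.9% in none. By library, 7 and 9 of the 88 windows had a peak in TD, 5 and 6 in IFE, and 10 and 9 in HF. Among the 37 Krt windows the numbers were 5 and 6 in TD, 4 and 4 in IFE, and 8 and 7 in HF. The Krt counts, though small, were highest in HF and lowest in IFE without overlap. Over all protein-coding windows the shares with a peak were 53.5% and 54.7% in TD, 54.8% and 53.6% in IFE, and 54.4% and 54.2% in HF.

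The classes of keratin differed in this respect. Of 19 windows of epithelial keratins, 1 had a peak in all 6 libraries, 6 in some and 12 in none. Of 8 sheath keratin windows, 2 had a peak in some libraries and 6 in none. None of the 9 hair keratin windows had a peak in any library. Of 51 Krtap windows, 1 had a peak in all 6, 3 in some and 47 in none. Besides the windows already described, Krt77 had a peak over part of its window in all libraries but HF 1. Krt75, the keratin of the companion layer beside the outer root sheath, had one in TD 1 and both HF libraries. Krt23 had one in TD 2 and both HF libraries, and Krt2, a keratin of upper epidermal layers, had one in both HF libraries. In Krt75 in TD 1, Krt23 in HF 1 and Krt2 in HF 2 the peak stopped short of the start itself, at -115, -144 and -22 bp. Krt14 had a peak over its listed window in TD 2 and HF 1. That listed start lies 1480 bp inside the gene span, and a region over the end of the span, chr11:100207254-100210560, had a peak in all 6 libraries. Krtap3-2 had one in TD 2 and Krtap4-2 in IFE 2. No window was listed for Krt1, Krt6a, Krt15, Krt16 or Krt17, so the window counts leave these genes out. Each of them had a region over an end of its span with a peak in all 6 libraries. Which end holds the start was not given.

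Krt starts were nearer to a region than Krtap starts. The median distance from the start to the nearest region was 2472 bp for the Krt windows, 5019 bp for the 28 Krt windows without a peak, and 26872 bp for the Krtap windows, against 0 bp for all protein-coding windows. A region lay within 10 kb of 91.9% of the Krt starts, 37.3% of the Krtap starts and 72.2% of all starts. Krt8, which Merkel cells also make, had no peak over its start window but a region 742 bp upstream with a peak in all 6 libraries. Of the 51 Krtap windows, 13 (25.5%) shared a run of at least 50 bases with the window of another gene, against 9.2% of all windows, and none of the 13 had a peak. How reads that match several copies were handled is not given in the sources used here, so the missing peaks at these 13 are uncertain.

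Keratin start windows were rich in TATA boxes. TATAAA occurred on either strand in 61 of the 88 windows (69.3%), against 12.6% of all protein-coding windows. Placed 40 to 15 bases before the start and in the direction of the gene, it occurred in 45 (51.1%), against 2.62% of all windows. By class, that placed match was found in 21.1% of epithelial, 75% of sheath, 44.4% of hair and 60.8% of Krtap windows. CTTTGA was found in 27.3% of keratin and Krtap windows and in 5 of the 9 hair keratin windows (55.6%), against 14.4% of all windows. TGANTCA was found in 13.6% of keratin and Krtap windows and 7.0% of all. GCCNNNGGC was found in 9.1% of keratin and Krtap windows and 19.9% of all, with 21.1% in the epithelial class and 2.0% in Krtap windows. Any of these matches is a string of letters and was not shown to be a bound site.

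A placed TATA box went with fewer peaks in other genes too. Of 513 windows of other genes with the placed TATAAA, 72.3% had no peak in any library, against 42.0% of 20661 windows without it. Of the 14 Krt windows with it, only that of Krt25 had a peak, and of the 23 without it 8 had a peak in at least 1. The order was the other way among Krtap windows, where 4 of 31 with the placed match and 0 of 20 without it had a peak in any library. All 4 Krtap windows with a peak thus carried the placed TATA box.

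**Figure D2:**
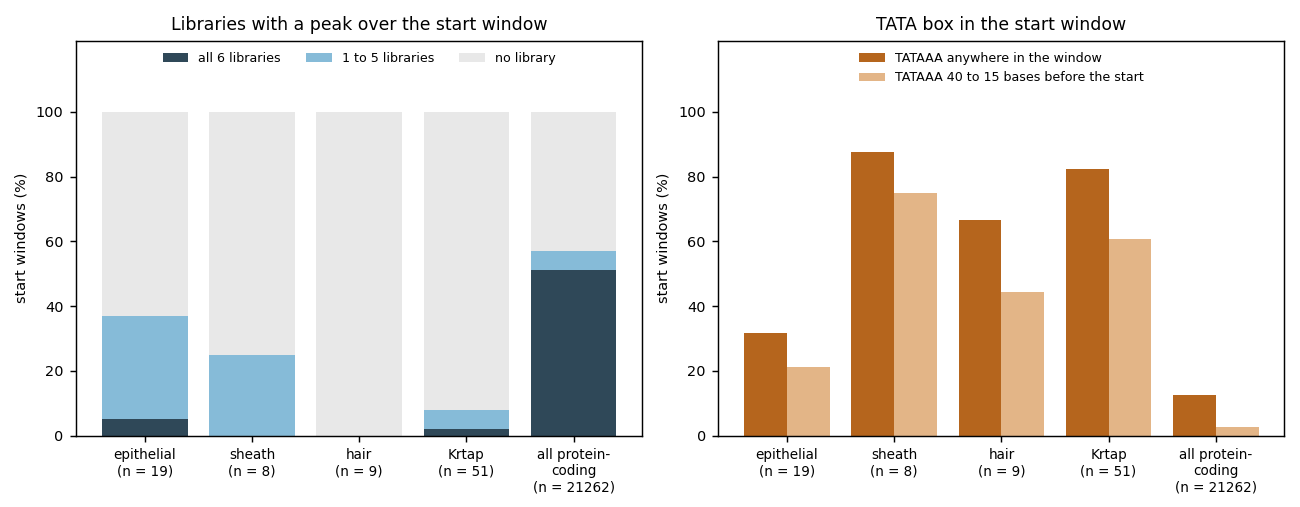
Left, the percent of start windows with a peak in all 6 libraries, in 1 to 5 libraries or in no library, by keratin class and for all protein-coding genes. Right, the percent of the same windows with TATAAA anywhere on either strand or 40 to 15 bases before the start on the gene's strand. Hair keratin windows had no peak in any library, and 60.8% of Krtap windows held the placed TATA box against 2.62% of all windows.

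Over whole genes, epithelial keratins again had peaks most often. Within the gene span and 1 kb on either side, 30 of the 109 members (27.5%) had a peak in all 6 libraries and 67 (61.5%) had none in any. Over all 21896 genes the shares were 62.0% and 29.9%. Of 27 epithelial keratins, 18 had a peak in all 6 libraries and 5 in none. Of 8 sheath keratins, 2 had a peak in all 6 and 3 in none, and of 15 hair keratins, 5 had a peak in all 6 and 10 in none. Of 56 Krtap genes, 4 had a peak in all 6 and 49 (87.5%) in none. Krtap genes are short, and among 2540 other genes shorter than 2 kb, 83.4% had no peak in any library and 13.6% had one in all 6. The Krtap share without a peak was therefore close to that of other short genes.

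The clusters were unevenly covered. The type I cluster, chr11:99232761-100269951, held 50 member genes and 76 regions, 7.33 per 100 kb. The type II cluster, chr15:101348315-102032026, held 26 member genes and 67 regions, 9.80 per 100 kb. The Krtap cluster of chromosome 16, chr16:88610709-89571183, held 24 member genes and 11 regions, 1.15 per 100 kb. Its longest stretch without a region in any library was 599278 bp and held 15 Krtap genes. In the type I cluster the longest such stretch was 207461 bp, from chr11:99635080 to chr11:99842540, and held 5 Krtap genes. In the type II cluster it was 50437 bp and held 0 members. The cluster of 5 Krtap genes on chromosome 7 held 1 region, and the 3 regions in the cluster of 3 Krtap genes on chromosome 10 all lay nearest to Tspear.

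Most keratin chromatin that was open was open in all 3 populations. Of the 168 regions, 92 (54.8%) had a peak in all 6 libraries, against a background of 45.2% of all regions. Among the 62783 regions assigned to a gene the share was 48.2%. By class it was 62.5% for the 96 epithelial keratin regions, 56.5% for the 23 hair keratin regions and 33.3% for the 30 Krtap regions. Of 13 sheath keratin regions, 6 were open in all 6. Regions with a peak in only 1 library made up 10.7% of keratin and Krtap regions and 13.6% of all. The median width was 979.5 bp for keratin and Krtap regions and 953 bp for all. Of the keratin and Krtap regions, 28.0% lay within 1 kb of a gene end, against 17.4% of all and 21.0% of those assigned to a gene.

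Basal keratins had broad regions in every library. The region over the Krt5 start, chr15:101712444-101714996, was covered by peaks over 2398 and 2256 bp in TD, 2552 and 2285 bp in IFE, and 2124 and 2165 bp in HF. The region at the other end of Krt5 was covered over 2463 and 2118 bp in TD, 2486 and 2016 bp in IFE, and 1979 and 1654 bp in HF. A smaller region 2715 bp from Krt5 had a peak in TD 2, IFE 1 and IFE 2 but in no HF library. Over the end of Krt14, partner of Krt5, the region named earlier was covered over 1946 and 2068 bp in TD, 2436 and 2105 bp in IFE, and 3096 and 3059 bp in HF. The covered length there was greatest in the HF libraries, without overlap. At the opposite end of Krt14, chr11:100200126-100203112, it was smallest in HF, with 1987 and 2148 bp in TD, 2948 and 2351 bp in IFE, and 1555 and 1190 bp in HF. Of 6 Krt14 regions, 4 were open in all 6 libraries. Inside the gene, chr11:100205140-100206296 had a peak in TD 2 and both HF libraries and in no IFE library, and a region 15462 bp away had one in IFE 2 and both HF libraries and in no TD library. Krt15, a keratin of the basal layer and of the follicle bulge where hair stem cells reside, had 2 regions, both open in all 6. The region over Krt15, chr11:100135375-100138115, was covered over 1760 and 1959 bp in TD, 1844 and 1826 bp in IFE, and 2644 and 2652 bp in HF. The other, 413 bp from the gene, was covered over 2760 and 2112 bp in TD, 3310 and 2635 bp in IFE, and 2377 and 2166 bp in HF, where the groups overlapped. Covered length is the sum of a library's peaks within a region. It depends on depth as well as on the cells, and these lengths were not tested.

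Suprabasal keratins had open regions in all 3 populations. Krt10 had 4 regions, of which 3 were open in all 6 libraries, and 1, chr11:99399827-99400582, had a peak of 541 and 756 bp in HF 1 and HF 2 and none in TD or IFE. Krt1 had 3 regions, 2 of them open in all 6. The other Krt1 region, chr15:101834703-101835603, lay 9823 bp from the gene and had peaks of 521 and 726 bp in TD and 720 and 901 bp in IFE, with none in HF. Krt77, a type II keratin of suprabasal cells, had 5 regions, with 4 open in each library and 3 open in all 6. Krt2 had 2 small regions, of which 1 was open in IFE 1 only and 1, chr15:101818167-101818667, in HF 1 and HF 2 only.

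Krt6a, which is made in the companion layer and induced by wounding, had 5 regions, 2 of them with peaks in HF and not elsewhere. In each TD and each IFE library 3 of the 5 were open, and in each HF library all 5. The pair seen in HF only were chr15:101686570-101687012, with peaks of 339 and 387 bp, and chr15:101688026-101689187, with peaks of 1162 and 699 bp. Krt16, a wound-induced partner of Krt6a, had 1 region open in all 6 and 1 open in TD 2 and both HF libraries. Krt17, a type I keratin of the outer root sheath and touch dome, had 3 regions, 2 open in all 6. The other was open in IFE 1 and both HF libraries and in no TD library. Krt75 had 3 regions, 2 open in all 6 and 1 in all but IFE 1. Krt24 had 6 regions, of which 4 were open in all 6 libraries, 1 was open in TD 1 and both HF libraries, and 1, chr11:99280933-99281431, in both HF libraries only. Krt79 had 5 regions, and 1 of them, chr15:101927143-101927786, had a peak in TD 1, TD 2 and IFE 2 and in no HF library. Krt6b had no region.

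Regions with peaks in all TD and IFE libraries and no HF library numbered 10 (5.95%, against 6.52% of all regions). Of the 10, 7 belonged to epithelial keratins, a class that holds 96 of the 168 regions: that of Krt1 and 6 at Krt80, Krt23 and Krt12. Krt80, a type II keratin of many epithelia at the edge of its cluster, had the most regions of any member, 16. Of these, 13 and 14 were open in the TD libraries, 15 and 14 in the IFE libraries, and 11 and 10 in the HF libraries, so the HF libraries had fewest. Both TD and both IFE libraries but no HF library had a peak at 3 of them, chr15:101341963-101342903, chr15:101347819-101348595 and chr15:101362359-101362914. The opposite pattern was seen at 1, chr15:101378711-101379130, which had a peak in HF 1 and HF 2 only. Krt23, a type I keratin, had 5 regions. A pair of them less than 1 kb apart, chr11:99472108-99472677 and chr11:99473053-99473717, had peaks in all TD and IFE libraries and in no HF library. The Krt23 region at its start window had a peak in TD 2, HF 1 and HF 2. Krt12, known from the cornea, had 3 regions, of which 2 were open in all 6 and 1, chr11:99420267-99420843, in TD and IFE only.

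Simple epithelial keratins, which include the Merkel cell keratins, showed no region confined to TD, and in this they did not differ from other members. None of the 168 keratin and Krtap regions was open in both TD libraries and no other, against 1.13% of all regions. Krt7 had 4 regions and Krt8 had 1, each open in all 6 libraries. The Krt18 region had peaks of 767 bp in TD 2, 745 and 715 bp in IFE, and 575 and 931 bp in HF, and none in TD 1. Krt20, a keratin that in skin marks Merkel cells, had 1 region, open in IFE 1 only. Krt19, also a keratin of the bulge and touch dome, had 1 region open in all 6 and 1 open in TD 1, TD 2, IFE 1 and HF 1. Of 16 regions of the 7 Merkel cell genes Atoh1, Piezo2, Isl1, Sox2, Krt8, Krt18 and Krt20, 6 and 10 were open in TD, 10 and 7 in IFE, and 11 and 13 in HF. Piezo2, the touch channel gene, held 9 of the 16, with 3 and 5 open in TD, 3 and 3 in IFE, and 7 and 9 in HF. Krt4, of mucosal epithelium, had 1 region, open in all 6, and Krt13, its mucosal partner, had none. Krt78 had 7 regions, with 6 and 5 open in TD, 7 and 5 in IFE, and 6 and 5 in HF.

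Sheath keratins held 13 regions. Krt25 had 1 region, open in all 6 libraries. Krt27 had 2: chr11:99348090-99349226 was covered over 453 and 1028 bp in TD and 535 and 1137 bp in HF, with no peak in IFE, and the other had a peak in HF 2 only. Krt71 had 3 regions, of which 1 was open in all 6, chr15:101730989-101731867 had peaks of 837 and 855 bp in HF only, and chr15:101752075-101752991 had peaks in both TD and both IFE libraries only. Krt72 had 2 regions open in all 6 and 1, chr15:101787314-101787717, open in HF only. Krt28 had 1 region, open in TD 2 only.

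Hair shaft keratins mostly had no peak within 1 kb of the gene, but regions farther away were nearest to them. Their 23 regions were nearest to 11 of 15 genes, and 13 were open in all 6 libraries, for example within 1 kb of Krt31 and Krt86 and farther from Krt33b and Krt36. Krt31 had 2 regions open in all 6, 1 of them covered over 1702 and 1975 bp in TD, 1786 and 1706 bp in IFE, and 2705 and 2687 bp in HF. Krt32, of the hair cuticle, had 5 regions, with 5 open in each TD library, 3 in each IFE library, and 5 and 4 in the HF libraries. The IFE libraries lacked chr11:100073726-100074222 and chr11:100075705-100076351, and HF 2 lacked the first of them. Krt39 had a region open in IFE 2, HF 1 and HF 2 with no TD peak, and Krt40 had its region open in TD 1, TD 2 and IFE 1 with no HF peak. A Krt83 region was open in TD 2 and both HF libraries and in no IFE library. Krt35 and Krt81, keratins of the shaft, had no region. Krt85 was not analysed here.

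Krtap genes with regions were few. The 30 Krtap regions belonged to 15 of 56 genes, and Krtap11-1 had 8 of them, the farthest 45631 bp away. Of these 8, 4 and 4 were open in TD, 5 and 5 in IFE, and 6 and 6 in HF. Nearest to Krtap11-1 but 19226 bp from it, chr16:89550456-89550950 had peaks in both IFE libraries only. At 23601 bp from it, chr16:89594784-89595915 had peaks of 1082 and 1059 bp in both HF libraries only. Both Krtap17-1 regions were open in TD and HF only. Over the gene, chr11:99993831-99994586 had peaks of 530 and 572 bp in TD and 756 and 664 bp in HF, and chr11:99989742-99990705 had peaks of 567 and 740 bp in TD and 952 and 888 bp in HF. The neighbouring Krtap29-1 had the same pattern 7600 bp from the gene, with peaks of 345 and 769 bp in TD and 1427 and 1217 bp in HF. Both regions of Krtap24-1, 20880 and 17170 bp from the gene, were open in HF only. Of Krtap1-3, 1 region, chr11:99591000-99591306, was open in IFE only. Krtap3-2 and Krtap6-2 each had 1 region open in TD and IFE only. A region open in all 6 libraries was nearest to 7 Krtap genes, Krtap28-13, Krtap3-3, Krtap4-2, Krtap16-1, Krtap8-1, Krtap7-1 and Krtap11-1. Those of Krtap28-13, Krtap8-1 and Krtap7-1 lay 4637, 23362 and 11729 bp from the gene.

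**Figure D3:**
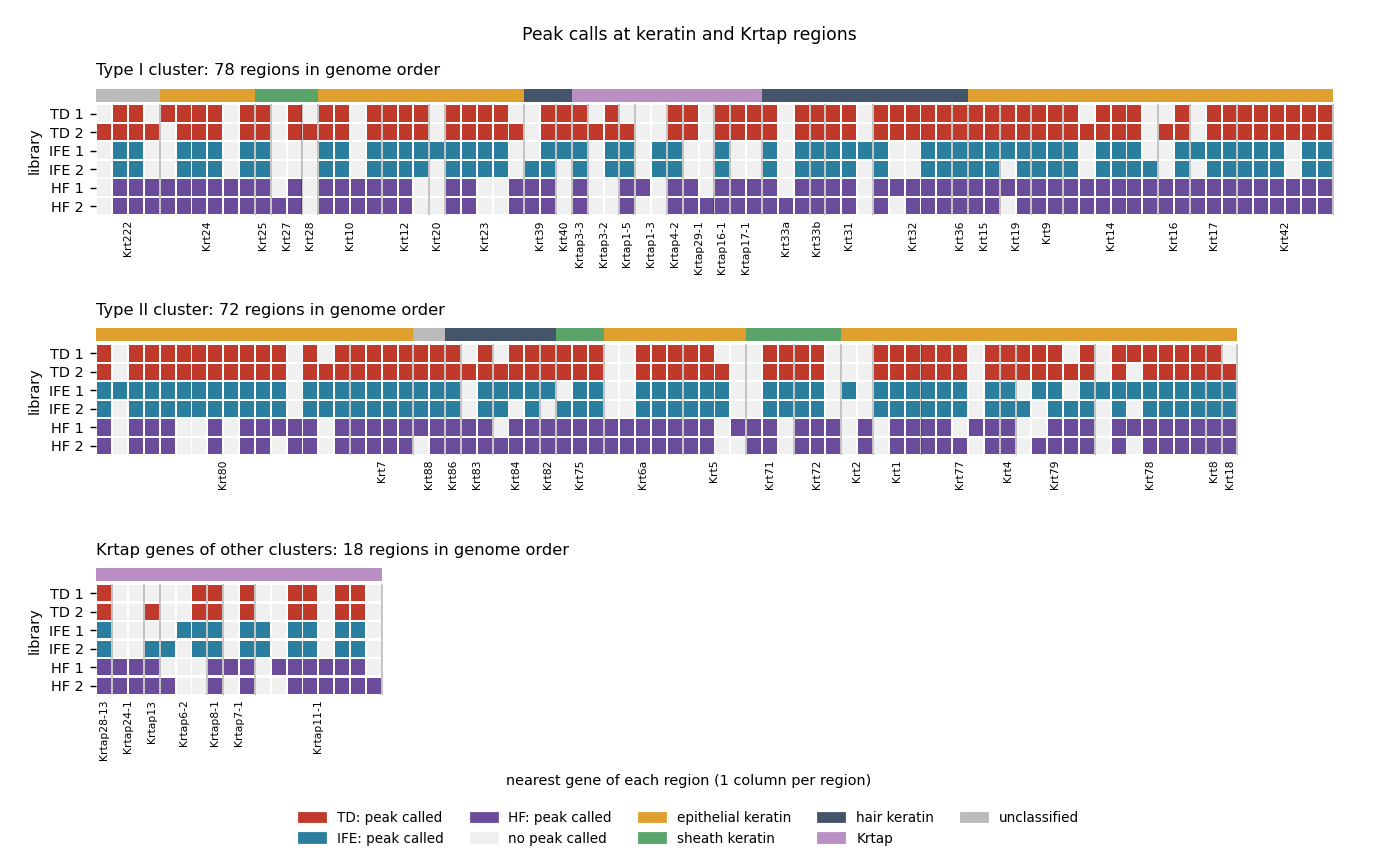
Peak calls at all 168 keratin and Krtap regions in genome order, 1 column per region and 1 row per library, with TD above IFE above HF and regions grouped by the cluster of their nearest gene. Coloured cells have a peak, pale cells have none, and the strip above gives the keratin class of the nearest gene. Most columns are filled in all 6 rows, and the gaps shared by both IFE libraries while TD and HF are filled are at genes of the type I cluster.

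Between TD and IFE, 7 keratin and Krtap regions (4.17%) had a peak in both TD libraries and neither IFE library, against a background of 5.41% of all regions. They were those of Krt27, Krtap29-1, Krtap17-1 with 2, Krt32 with 2 and Krt42. The Krt42 region, chr11:100281809-100282748, lay 11858 bp from that type I keratin and had peaks of 692 and 729 bp in TD and 922 and 940 bp in HF. In the other direction, 2 regions (1.19%), those of Krtap1-3 and Krtap11-1, had a peak in both IFE libraries and neither TD library, against 1.80% of all regions. All 7 regions with peaks in TD and not IFE were nearest to genes of the type I cluster, 6 of them inside it and that of Krt42 beyond its end, and 0 to genes of the type II cluster. The shares were 8.97% of 78 type I cluster regions and 0% of 72 type II cluster regions, against 5.41% of all regions. Of the 7, 6 had a peak in both HF libraries, and the remaining Krt32 region had one in HF 1, so 0 were confined to TD. Over all regions 1.13% were open in both TD libraries and no other.

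Between TD and HF, 12 regions (7.14%) had a peak in both TD libraries and neither HF library, against 8.40% of all regions. They belonged to Krt80 with 3, Krt23 with 2, and Krt12, Krt40, Krt1, Krt71, Krt79, Krtap3-2 and Krtap6-2. The reverse held for 14 (8.33%), against 7.97% of all regions. These belonged to Krt6a with 2, Krtap24-1 with 2, and Krt24, Krt10, Krt39, Krt14, Krt17, Krt80, Krt71, Krt72, Krt2 and Krtap11-1.

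Between IFE and HF, 14 regions (8.33%) had a peak in both IFE libraries and neither HF library, against 10.2% of all regions. The reverse held for 23 (13.7%), against 14.7%. Among regions assigned to a gene the 2 background shares were 9.91% and 12.8%. The 14 were 10 that TD shared, IFE-only regions of Krtap1-3 and Krtap11-1, and regions of Krt5 and Krt80 that TD 2 alone shared among the TD libraries. Of the 23, 13 were nearest to genes of the type I cluster, 7 to genes of the type II cluster and 3 to genes of the chromosome 16 cluster. These were 16.7% of 78 type I, 9.72% of 72 type II and 17.6% of 17 chromosome 16 cluster regions, against 14.7% of all regions. The 23 included the 11 open in HF only, the 6 open in TD and HF, and regions of Krt222, Krt23, Krt14, Krt16, Krt83 and Krt24 that 1 TD library had as well. In each of the 6 directions the keratin and Krtap share was close to the background, so the number of group-specific regions does not set these genes apart. IFE and HF shared 0 keratin regions that both TD libraries lacked, against 0.322% of all regions.

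Peaks were also counted per library. TD libraries had a peak at 72.0% and 79.8% of the 168 regions, IFE libraries at 74.4% and 70.8%, and HF libraries at 80.4% and 79.2%. Over all regions the shares were 64.6% and 77.5% in TD, 68.2% and 66.3% in IFE, and 71.6% and 74.3% in HF. The HF libraries were above the IFE libraries on keratins without overlap, and the TD libraries spanned nearly the whole range. The mean was 75.9 ± 5.47% in TD, 72.6 ± 2.53% in IFE and 79.8 ± 0.84% in HF (SD, n = 2 each). The difference was 3.27 percentage points for TD minus IFE, -3.87 for TD minus HF and -7.14 for IFE minus HF. Over all regions it was 3.79, -1.89 and -5.69 points. An exact two-sided permutation test over the libraries gave p = 0.667, 0.667 and 0.333, and 0.333 is the smallest that 2 against 2 libraries allow, so no difference could pass 0.05. Adjusted over the 9 tests made on 3 sets of regions by the Benjamini-Hochberg method, every exact permutation p was 0.75 or 1.

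Epithelial keratin regions as a whole had overlapping shares in the 3 populations. TD libraries had a peak at 78.1% and 83.3% of the 96 regions, IFE libraries at 83.3% and 78.1%, and HF libraries at 83.3% and 80.2%. The means were 80.7 ± 3.68% in TD, 80.7 ± 3.68% in IFE and 81.8 ± 2.21% in HF (SD, n = 2 each). The differences of 0, -1.04 and -1.04 points were within the spread between libraries, with an exact permutation p of 1 for each. The type I and type II members of the class ran in opposite directions. The 43 type I regions were open at 79.1% and 86.05% in TD, 81.4% and 76.7% in IFE, and 90.7% and 88.4% in HF, with HF highest. The 53 type II regions were open at 77.4% and 81.1% in TD, 84.9% and 79.2% in IFE, and 77.4% and 73.6% in HF, with IFE above HF. This split was looked at after the values were seen and was not tested. Near gene ends, within 1 kb, the whole class differed by -13.8 points for IFE minus HF.

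Hair, sheath and Krtap regions differed most between the populations of these 3 sets. TD libraries had a peak at 63.6% and 72.7% of the 66 regions, IFE libraries at 62.1% and 60.6%, and HF libraries at 75.8% and 78.8%. The groups did not overlap, with HF highest and IFE lowest. The means were 68.2 ± 6.43% in TD, 61.4 ± 1.07% in IFE and 77.3 ± 2.14% in HF (SD, n = 2 each). The difference was 6.82 points for TD minus IFE, -9.09 for TD minus HF and -15.9 for IFE minus HF, where all regions differed by -5.69. Each had the smallest possible exact permutation p, 0.333, and 0.75 after adjustment. Single libraries decided the TD values: TD minus IFE was 11.4 points without TD 1 and 2.27 without TD 2, and TD minus HF was -4.55 without TD 1 and -13.6 without TD 2. With the wider peaks of each list alone, the 3 differences were 1.47, 0 and -1.47 points. The gap between TD 1 and IFE 1 was smaller than the spread between the TD libraries. By class, sheath regions were open at 69.2% and 76.9% in TD, 53.8% and 61.5% in IFE, and 76.9% and 84.6% in HF. Hair keratin regions were open at 78.3% and 87.0% in TD, 78.3% and 65.2% in IFE, and 82.6% and 87.0% in HF. Krtap regions were open at 50% and 60% in TD, 53.3% and 56.7% in IFE, and 70% and 70% in HF.

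The clusters were set against each other within each library, a comparison chosen after the values were seen. The share open among regions nearest to type I cluster genes minus that among regions nearest to type II cluster genes was -2.03 and 0 points in TD, -12.8 and -11.1 points in IFE, and 1.50 and 4.27 points in HF. The IFE libraries had the smallest share of type I regions open relative to type II. The difference of these values was 10.95 points for TD minus IFE, -3.90 for TD minus HF and -14.9 for IFE minus HF. TD minus HF turned positive under several settings, at 0.762 to 5.95 points. A comparison by class was also chosen after the values were seen. Hair, sheath and Krtap minus epithelial regions gave -14.5 and -10.6 points in TD, -21.2 and -17.5 in IFE, and -7.58 and -1.42 in HF. Each of these 6 differences had an exact permutation p of 0.333, also after adjustment over the 6, and the groups did not overlap.

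**Figure D4:**
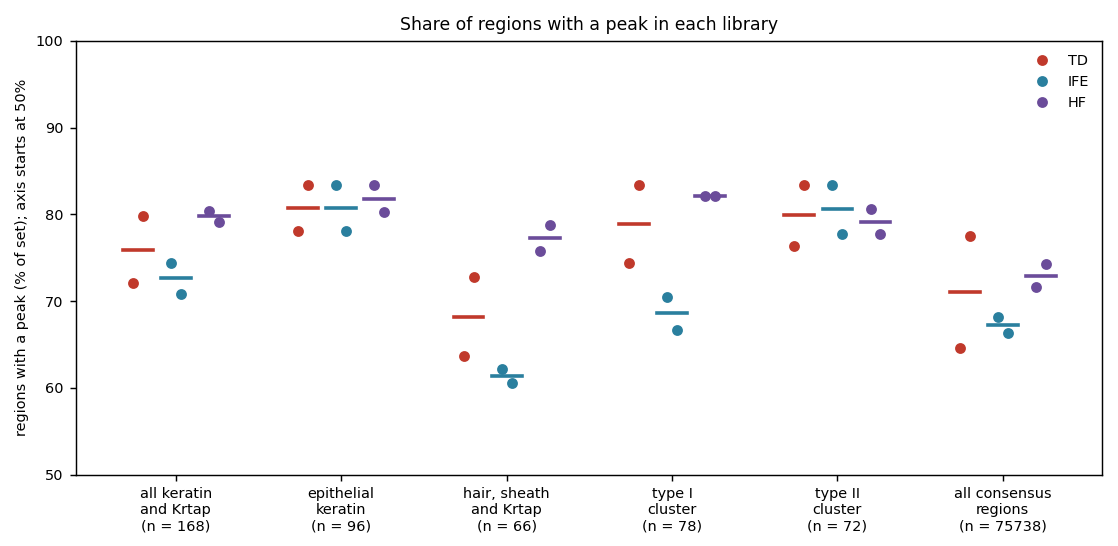
Percent of regions with a peak in each library (points) and the mean of each group (bars), for keratin sets and for all regions, with an axis that starts at 50%. Epithelial and type II regions overlap between TD, IFE and HF, whereas hair, sheath and Krtap regions average 68.2% in TD, 61.4% in IFE and 77.3% in HF.

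Regions of some other genes also had their highest mean in HF and lowest in IFE, as did all regions of the genome-wide set. Of 73 regions of the follicle stem cell genes Lhx2, Lgr5, Sox9, Cd34 and Nfatc1, 45 and 55 were open in TD, 39 and 39 in IFE, and 61 and 64 in HF. Of 14 regions of the fibroblast genes Col1a1, Col1a2, Pdgfra, Dcn and Lum, 9 and 11 were open in TD, 5 and 3 in IFE, and 13 and 12 in HF, with no region at Lum. Of 29 regions of 7 melanocyte genes, 20 and 25 were open in TD, 16 and 17 in IFE, and 23 and 24 in HF, with none at Tyr or Kit; here TD and HF overlapped. Of the fibroblast and melanocyte gene regions, 50% and 31.0% were open in HF and not IFE, against 14.7% of all regions. The reverse held for 0% and 3.45%, against 10.2% of all regions. Members of both lists differed. Mitf held 20 of the 29 melanocyte regions and 8 of the 9 open in HF and not IFE, and Dct gave the other. Sox10 had 1 region the reverse, and Pmel and Mlana had 0 in either direction. The fibroblast regions open in HF and not IFE were those of Col1a1, Col1a2 and Pdgfra, whereas the Dcn region was open in both TD libraries only. Every gate took EPCAM+ and α6-integrin+ cells, and the purity of the sorted cells is not known here. The part of fibroblasts or melanocytes in the keratin differences was not tested. Regions of endothelial genes numbered 12 and 14 in TD, 15 and 16 in IFE, and 17 and 16 in HF of 21, with none at Cdh5 or Kdr. Regions of immune genes numbered 3 and 3 in TD, 2 and 2 in IFE, and 1 and 1 in HF of 3, with none at Cd207 or Lyz2. Among genes used in the sort, Tnc had 17 and 17 regions open in TD, 11 and 11 in IFE, and 13 and 12 in HF, and Ly6a, which encodes SCA1, had 4 and 4 in TD, 5 and 5 in IFE, and 2 and 2 in HF. Itga6, which encodes the α6-integrin of every gate, had 14 and 14 in TD, 20 and 15 in IFE, and 9 and 9 in HF, and Epcam had 6 and 7 in TD, 7 and 6 in IFE, and 7 and 7 in HF. Peaks numbered 50153 and 59250 in TD, 52219 and 51124 in IFE, and 54844 and 57131 in HF. Keratin and Krtap peaks made up 0.249% to 0.272% of the peak length of each library.

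Genes that anchor keratin filaments or control keratin genes were counted in the same way. The plakins Dsp, Ppl, Evpl, Plec and Dst, which tie keratins to desmosomes and hemidesmosomes, had 69 regions, 34 of them open in all 6. Among them 3 (4.35%) were open in TD and not HF, 10 (14.5%) in HF and not TD, 5 (7.25%) in IFE and not HF, and 10 (14.5%) in HF and not IFE, where all regions gave 8.40%, 7.97%, 10.2% and 14.7%. Dst, the plakin of hemidesmosomes, gave 8 of the 10 that HF had and TD lacked. The armadillo proteins Jup, Pkp1, Pkp2 and Pkp3 of desmosomes had 27 regions, 18 open in all 6, with 4 (14.8%) open in TD and not HF, of which Jup gave 3, and 1 (3.70%) in HF and not TD. The regulators of hair keratins Hoxc13, Foxn1, Lef1, Dlx3 and Msx2 had 29 regions, 14 open in all 6. In the list as a whole 4 (13.8%) were open in TD and not HF and 3 (10.3%) in HF and not TD, and 4 were open in each direction between IFE and HF. Its members differed in direction: Hoxc13, a direct activator of hair keratin genes, had 2 regions open in HF and not IFE and 0 the reverse, whereas Msx2 had 0 and 2. The regulators of epithelial keratins Trp63, Tfap2a, Tfap2c and Klf4 had 62 regions, 35 open in all 6. Between TD and IFE, 3 of these 62 (4.84%) were open in TD alone of the pair and 2 (3.23%) in IFE alone, and between TD and HF the counts were 3 and 3, all below the shares over all regions except that of IFE.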

How the data were processed

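The submitters deposited 1 list of ATAC-seq peaks per library, with 4 columns and no score, count or coverage. Per the submitters' processing notes, peak lists on mm10 involved MACS2 2.2.7.1 besides Bowtie2 2.4.5, Trim Galore 0.6.7 and SAMtools 1.9. Their settings are not given in the sources used. The deposited positions have no unit of signal, so every value here is peak presence or peak length. Libraries with few reads lose weak peaks, and depth could not be adjusted for. Peaks were merged across the 6 lists and assigned to RefSeq GRCm38.p6 protein-coding gene spans (Python 3.11.15, pandas 2.3.3). A group-specific region had a peak in both libraries of the first group and in neither of the second. Shares of regions with a peak were compared over libraries by exact permutation. Keratins named are those with a group-specific region, a list of skin keratins, and Krtap genes with a region open in all 6 libraries. Members and lists were chosen with earlier results of these data known, and classes follow textbook knowledge. Sequences are from RefSeq. The code was tested on simulated peak lists. Alternatives were other gene distances, a 100 bp merging gap, a stricter overlap, regions near gene ends or inside the clusters, wider peaks, equal numbers of peaks, and each library left out.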

Additional observations from a re-analysis of the deposited data

How the results depend on the processing

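The differences in share open rested on few libraries and often on narrow peaks. With peaks above the median width of each list alone, all keratin and Krtap regions differed by -4.17 points for TD minus IFE and 0.521 for IFE minus HF, and epithelial regions by 0.847 for IFE minus HF. With equal numbers of the widest peaks from each library, TD minus IFE was -0.316 for all keratin regions, and epithelial regions gave 2.13 for TD minus HF and 5.32 for IFE minus HF. Within 10 kb of genes, epithelial TD minus HF was 0.649. Each of these had the opposite sign to its main value. Leaving out 1 library at a time gave -0.595 to 7.14 for TD minus IFE in all keratin regions, with the lowest value without TD 2. It gave -3.65 to 1.56 for epithelial TD minus HF, positive without TD 1 or HF 1, and -3.65 to 1.56 for epithelial IFE minus HF, positive without IFE 2 or HF 1. Hair, sheath and Krtap regions kept a negative IFE minus HF, at -1.47 to -17.0 over the 8 other settings and -14.4 to -17.4 with a library left out. The cause of these changes was not tested.

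Counts of group-specific regions fell with fewer regions. Near gene ends (within 1 kb, 47 regions) they were 1 for TD and not IFE, 1 for IFE and not TD, 1 for TD and not HF, 4 for HF and not TD, 2 for IFE and not HF, and 7 for HF and not IFE. With the wider peaks (96 regions) they were 3, 1, 6, 6, 5 and 6 in the same order, and 46.9% of regions were open in every library. IFE and not TD gave 1 within 10 kb, and HF and not IFE gave 15 with equal numbers of peaks. With 1 library left out, which loosens the criterion, TD and not IFE ranged from 8 to 15 (15 without TD 1, 12 without IFE 1) and IFE and not TD from 2 to 9 (7 without TD 2, 5 without IFE 1, 9 without IFE 2). HF and not TD ranged from 15 to 23 (23 without TD 2).

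The comparison of clusters within libraries turned sign for TD minus HF at 50% peak cover (4.17 points), near gene ends (0.762), inside the clusters (0.923) and with the wider peaks (5.95). Hair, sheath and Krtap minus epithelial regions near gene ends gave -0.230 for TD minus IFE, 0.230 for TD minus HF and 0.460 for IFE minus HF, and TD minus HF was 5.93 with the wider peaks. Between groups, same-numbered libraries deviated together only weakly (r = 0.00404 to 0.0591 over 75738 regions), so they were not taken as paired. With the number as a replicate block the differences keep their values by construction, such as 3.27 for TD minus IFE. No exact p was under 0.5, which is the smallest that these blocks allow, so this setting could not decide anything.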
